A study of Rattus norvegicus with 18 samples.

Results

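The heparan sulfate enzymes described here are 10 genes that build, sulfate or edit heparan sulfate: Ext1, Ext2, Ndst1, Glce, Hs2st1, Hs6st1, Hs3st1, Hs3st2, Sulf1 and Sulf2. All probe sets annotated to these symbols were taken, 14 of the 31042 probe sets tested and 10 of the 14217 named genes on the array. Hs3st1 was chosen by its measured course in these same arrays, with both constructs and at all times, and the rest were chosen by their place in its pathway with results known. The values of Hs3st1 are therefore given as a description with no test, and the other 13 probe sets were tested. Rat hippocampal neurons in dissociated culture were transduced on day 3. On day 10 they were exposed to the estrogen receptor ligand 4-hydroxytamoxifen (4OHT) for 0, 1 or 2.5 h. The test construct was MEF2-VP16-ER, in which the transcription factor MEF2 is joined to the VP16 activation domain and to an estrogen receptor domain that binds 4OHT. The control construct was MEF2deltaDBD-VP16-ER, the fusion with the DNA-binding domain of MEF2 removed. Every culture had therefore received a lentivirus, the VP16 domain and the receptor domain, and the 0 h groups had no 4OHT. Each of the 6 groups, construct by time, held 3 arrays that the labels call biological replicates. The promoter that drove the constructs, the share of cells reached by the virus and the age of the animals are not given in the sources used here.

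Heparan sulfate is a linear sugar chain carried by proteoglycans of the cell surface and the matrix, where it binds growth factors, morphogens and adhesion proteins. In the Golgi, the Ext1 and Ext2 proteins together polymerise the chain, Ndst1 swaps acetyl for sulfate groups on its glucosamines, Glce turns glucuronic into iduronic acid, and 2-O-, 6-O- and 3-O-sulfotransferases add further sulfates. 3-O-sulfation is the rarest of these steps. Hs3st1 makes the 3-O-sulfated site that antithrombin binds, and Hs3st2 is a 3-O-sulfotransferase known for its expression in brain. Sulf1 and Sulf2 act outside the cell, where they remove 6-O-sulfates from finished chains.

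The 250 bases upstream of the annotated start are shown for both 3-O-sulfotransferase genes, because one of them had the widest course of the 14 probe sets and the other stayed in a narrow range. Both are on the plus strand of GRCr8 and come from RefSeq: chr14:75398723-75398972 for Hs3st1 and chr1:185387213-185387462 for Hs3st2. Capitals mark TGACGTCA, the palindromic cAMP response element.
Hs3st1: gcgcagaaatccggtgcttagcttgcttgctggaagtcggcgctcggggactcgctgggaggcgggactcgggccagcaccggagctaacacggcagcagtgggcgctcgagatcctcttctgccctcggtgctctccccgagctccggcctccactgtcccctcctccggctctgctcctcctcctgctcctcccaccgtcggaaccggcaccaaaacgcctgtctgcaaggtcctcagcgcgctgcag
Hs3st2: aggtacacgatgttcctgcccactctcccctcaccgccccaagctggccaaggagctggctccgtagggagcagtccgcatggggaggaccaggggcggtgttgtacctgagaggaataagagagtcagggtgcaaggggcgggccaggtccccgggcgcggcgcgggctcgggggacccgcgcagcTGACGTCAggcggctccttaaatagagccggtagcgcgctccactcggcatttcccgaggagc
Promoters of 7 of the 10 genes were found in the RefSeq table, and Ext1, Ext2 and Sulf1 were not analysed here. A search of both strands found the MEF2 consensus in 0 of these 7 promoters, against 2.96% of all 33469 promoters of the same length, and the SRF box in 0, against 1.5%. TGACGTCA was in 1 of the 7, that of Hs3st2, against 1.59% of all. TGACG, the shorter form that lies within it, was in 3 of the 7, those of Ndst1, Hs2st1 and Hs3st2, against 18.22% of all. GC content was 67.6% in the promoters of both Hs3st1 and Hs3st2, against a median of 51.2% over all. All 7 promoters were above that median, from 54.8% for Ndst1 to 75.6% for Hs6st1. A match in these letters is a description of the sequence only.

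The measure is the deposited linear intensity of each probe set, with array medians between 190.4 and 197 and upper quartiles between 639.4 and 714.7. Every change is given in log2 units after adding 16 to each intensity, which makes changes of dim probe sets look smaller than they are, and an induction is the change from 0 h with MEF2-VP16-ER minus the change from 0 h with the control construct. A probe set is said to have risen or fallen only where its limma adjusted p over all 31042 probe sets was under 0.05. Intensities are compared between arrays within a probe set. Between probe sets they are not compared as amounts, and marker sums and words such as bright or dim are rough guides to level only. The number of arrays limits the precision, and in such bulk samples fewer cells of a type and less RNA per cell cannot be told apart. Markers of neurons were high, 8 of 8 measured with a summed intensity of 42899 to 50013 over the 18 arrays, and 6 of 6 astrocyte markers were measured with a sum of 30885 to 44438, so glial RNA was present beside that of neurons. Endothelial markers summed to 224 to 264 over 4 measured genes.

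Hs3st1 was measured by 1 probe set, 1370834_at, and its RNA moved in opposite directions with the 2 constructs. In control neurons it read 490, 465.3 and 509 at 0 h in replicates 1, 2 and 3, then 485.2, 415.6 and 423.8 at 1 h, and 322.8, 281.1 and 222.9 at 2.5 h. In MEF2-VP16-ER neurons it read 503.6, 501.8 and 502.3 at 0 h, then 1209.4, 905.4 and 1009.8 at 1 h, and 1575.7, 1449.4 and 1641.9 at 2.5 h. Before 4OHT the MEF2-VP16-ER arrays lay inside the range of the control arrays. At 1 h and 2.5 h every MEF2-VP16-ER array was above every control array, and the 3 MEF2-VP16-ER groups did not overlap with each other. Control arrays at 1 h overlapped with those at 0 h, while all 3 control arrays at 2.5 h were lower than any at 0 h or 1 h.

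**Figure D1:**
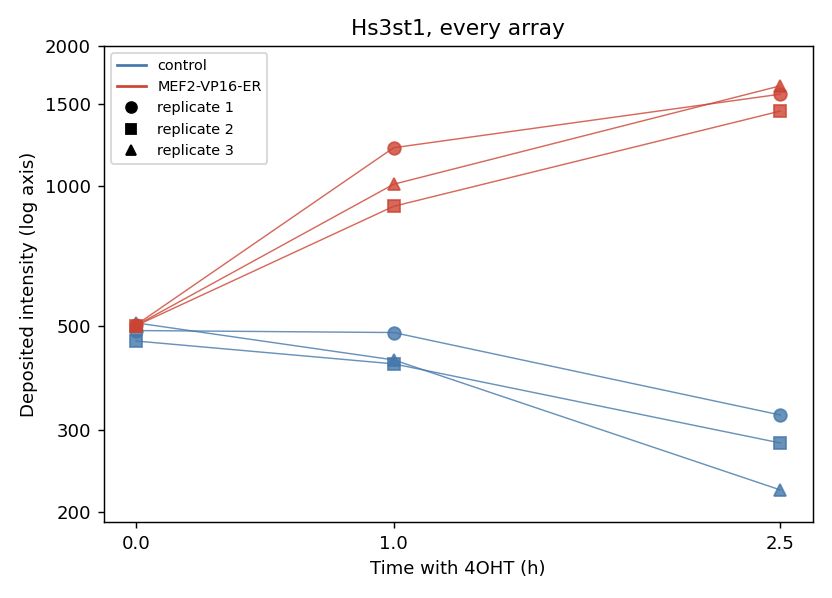
Deposited intensity of Hs3st1 (log axis) against hours with 4OHT, with 1 point per array, lines joining arrays of the same replicate number, and colours for the 2 constructs. All 6 arrays at 0 h lie between 465.3 and 509, and at 2.5 h the MEF2-VP16-ER arrays lie between 1449.4 and 1641.9 and the control arrays between 222.9 and 322.8.

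In order of mean intensity, Hs3st1 stood at 1556 ± 97.8 (SD, n = 3) with MEF2-VP16-ER at 2.5 h, 1042 ± 154 at 1 h and 503 ± 0.94 at 0 h, then at 488 ± 21.9 in control neurons at 0 h, 442 ± 38.1 at 1 h and 276 ± 50.2 at 2.5 h. The neighbours whose arrays overlapped were the pair of 0 h groups and the control groups at 0 h and 1 h. As log2 changes with their SE, MEF2-VP16-ER neurons differed from 0 h by 1.02 ± 0.11 at 1 h (fold 2.03) and 1.60 ± 0.11 at 2.5 h (fold 3.03). Control neurons differed by -0.14 ± 0.11 at 1 h and -0.80 ± 0.11 at 2.5 h (fold 0.573). The induction was 1.16 ± 0.16 at 1 h and 2.40 ± 0.16 at 2.5 h, of which the control neurons' own course made up 0.80 at 2.5 h.

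Taken replicate by replicate, the change of Hs3st1 with MEF2-VP16-ER at 2.5 h was the most even of its 4 changes from 0 h. The MEF2-VP16-ER change at 2.5 h was 1.62, 1.5 and 1.68 in replicates 1, 2 and 3, and the control change was -0.58, -0.70 and -1.14. Replicate 3 had the largest control change at 2.5 h, and with it the largest induction, 2.81 against 2.19 and 2.20. At 1 h the control change was -0.01, -0.16 and -0.26 and the MEF2-VP16-ER change 1.24, 0.83 and 0.98. All 3 replicates thus moved up with MEF2-VP16-ER and down with the control construct at both times, by little in the control neurons at 1 h.

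Among all 31042 probe sets Hs3st1 ranked 2nd from the top by the induction at 2.5 h and 8th by that at 1 h. By the change in MEF2-VP16-ER neurons alone it ranked 13th at 2.5 h and 16th at 1 h. In control neurons it ranked 2nd from the bottom at 2.5 h and 1118th from the bottom at 1 h. Arrays at 2.5 h all above 0 h with MEF2-VP16-ER and all below 0 h in control neurons were found for 72 probe sets, 0.232% of those tested. Of these, Hs3st1 was the only probe set with both changes at least 0.5 log2 units. The reverse pair of courses was found for 53 probe sets, 0.171%, and 0 of them had both changes of that size. The 2 courses share no samples, and Hs3st1 was chosen for this pattern.

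The summed neuron markers also moved over the same arrays. Their summed intensity was 45593 to 50013 with MEF2-VP16-ER at 0 h and 42914 to 44499 at 2.5 h, which did not overlap, against 43056 to 45698 and 42967 to 45331 in control neurons. The sum thus went down where Hs3st1 went up. Taken singly, none of the 8 markers was called in the induction at 2.5 h (limma adjusted p = 0.521 or above), where 0.177% of all probe sets were called. Their inductions were -0.55 for Neurod6 and -0.23 for Prox1, and between -0.05 and 0.04 for the others. Neurod6 (5032 to 9673.8) and Tubb3 (7273 to 11628.3) had the widest ranges over all arrays. The sum is weighted to such bright markers and does not show that all neuron markers moved. The part of the neuron markers in the Hs3st1 result was not tested.

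The probe sets most like Hs3st1 over the 18 arrays' log2 values were sought among 12103 named probe sets above the median level. Arrays of a group share their construct and time, so these coefficients are descriptions. The highest Pearson r was that of Kcna4, a voltage-gated potassium channel gene (0.95). It was followed by Cited2, a transcriptional coregulator gene (0.94), Bambi, which encodes a pseudoreceptor of the TGF-beta family (0.94), the orphan nuclear receptor gene Nr4a3 (0.94) and Rgs2, a regulator of G-protein signalling (0.92). At 2.5 h their log2 changes with MEF2-VP16-ER and with control were 1.02 and -0.40 for Kcna4, 1.41 and -0.16 for Cited2, 1.64 and -0.10 for Bambi, 0.41 and -0.22 for Nr4a3, and 2.01 and -0.06 for Rgs2. All 5 had a negative control change, each smaller in size than the -0.80 of Hs3st1. They were picked for likeness over these same arrays, so this is a description. Over all probe sets 46.4% of control changes at 2.5 h were positive. At 1 h the control change was 0.08 for Kcna4, 0.02 for Cited2, -0.07 for Bambi, 0.03 for Nr4a3 and 0.10 for Rgs2. That of Hs3st1 was -0.14. The lowest r belonged to Pisd (-0.90), Slc35e4 (-0.90) and Amotl2 (-0.86). Among the other enzymes the coefficient was 0.77 for Ext1 on 1373393_at and between -0.45 and 0.30 for the other 12 probe sets.

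Hs3st2, the other 3-O-sulfotransferase gene among the 10, had no such course. Its 1 probe set read 550.2, 665.7 and 543.7 at 0 h and 595.3, 596.3 and 672 at 2.5 h in control neurons. The MEF2-VP16-ER arrays read 577, 743.6 and 584.8 at 0 h and 537.4, 699.9 and 600.4 at 2.5 h. All 18 arrays lay between 537 and 743.6, and the groups overlapped. Its induction at 2.5 h was -0.13 ± 0.16 (SE) (95% interval -0.480 to 0.212, adjusted p = 1).

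Ext1, the gene of a subunit of the chain polymerase, was the member besides Hs3st1 with the largest induction, and the probe set 1373393_at carried it. In control neurons this probe set read 979, 884.3 and 752.3 at 0 h, 984.8, 854.7 and 722.8 at 1 h, and 920.2, 712.6 and 708.3 at 2.5 h. Its values with MEF2-VP16-ER were 969.7, 843.9 and 829.3 at 0 h, 1031.6, 880.5 and 797 at 1 h, and 1258, 1176.5 and 1190.2 at 2.5 h. Only the MEF2-VP16-ER group at 2.5 h stood apart: its 3 arrays were above all the other 15, which overlapped with each other. Its mean was 1208 ± 43.7 (SD, n = 3), against 881 ± 77.2 at 0 h and against 872 ± 114 and 780 ± 121 in control neurons at 0 h and 2.5 h.

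The induction of Ext1 at 2.5 h was 0.61 ± 0.19 (SE, fold 1.53, 95% interval 0.215 to 1.007), and it was positive in 3 of 3 replicates at 0.46, 0.78 and 0.60. It was not called by limma without the replicate number (adjusted p = 0.479), and it was called with the replicate number as a block (SE 0.094, adjusted p = 0.00315). With the block it was also called in each of 12 fits that left out 1 array, with inductions of 0.541 to 0.679. The MEF2-VP16-ER change at 2.5 h was 0.45 ± 0.13 (adjusted p = 0.219 without the block, 0.000943 with it). The control change was -0.16 ± 0.13 and was negative in 3 of 3 replicates, by -0.09, -0.31 and -0.09. On this probe set Ext1 therefore moved up with MEF2-VP16-ER and down with the control construct in every replicate, as Hs3st1 did. Its control arrays at 0 h and 2.5 h overlapped, however, and its control change was not called (limma adjusted p = 0.9999, with the block 0.999). At 1 h the induction was 0.06 ± 0.19 (adjusted p = 0.998), where that of Hs3st1 was already 1.16. The difference between the constructs at 2.5 h itself, 0.63 ± 0.13, was called by limma (adjusted p = 0.0251, with the block 2.68e-05), where 1.28% of all probe sets were called without the block and 3.49% with it. The neuron marker sums given above moved over the same arrays, and their part in the Ext1 result was not tested.

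The other Ext1 probe set, 1392083_at, gave a similar size with a wider spread. It read 544.7, 520.6 and 310.8 in control neurons at 0 h and 443.9, 385.2 and 323.2 at 2.5 h. With MEF2-VP16-ER it read 550.3, 442.7 and 327.3 at 0 h and 539.9, 554.9 and 446 at 2.5 h. At 2.5 h all MEF2-VP16-ER arrays were above all control arrays, and the share of all probe sets so placed was not counted. Replicate 1 did not move up with MEF2-VP16-ER (-0.03), and replicate 3 did not move down with the control construct (0.05). Replicate 3 was low in 4 of 4 of these groups, and the replicate means over 6 arrays each were 527, 476 and 330. The induction was 0.46 ± 0.39 (adjusted p = 1, with the block 0.264), positive in 3 of 3 replicates. The difference between the constructs at 2.5 h was 0.41 ± 0.27 (limma adjusted p = 0.780, with the block 0.0404), so both Ext1 probe sets were called higher in that comparison with the block, and 1373393_at alone was called in the induction.

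Ext2, the other polymerase subunit gene, read 1304.4, 1288.8 and 1189.4 at 0 h and 1491.9, 1238.4 and 1363.9 at 2.5 h in control neurons. The MEF2-VP16-ER arrays read 1464.7, 1431.3 and 1370.1 at 0 h and 1442.4, 1381.5 and 1442.4 at 2.5 h. At 0 h all 3 MEF2-VP16-ER arrays were above the control arrays (0.17 log2 units, adjusted p = 0.532 or above for every enzyme at 0 h), and at 2.5 h the groups overlapped. The induction at 2.5 h was -0.11 ± 0.12 (95% interval -0.368 to 0.148, limma adjusted p = 1, with the block 0.867). Ext2 thus did not pass the test with or without the block, where its partner Ext1 passed with it. The genes were not tested against each other.

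**Figure D2:**
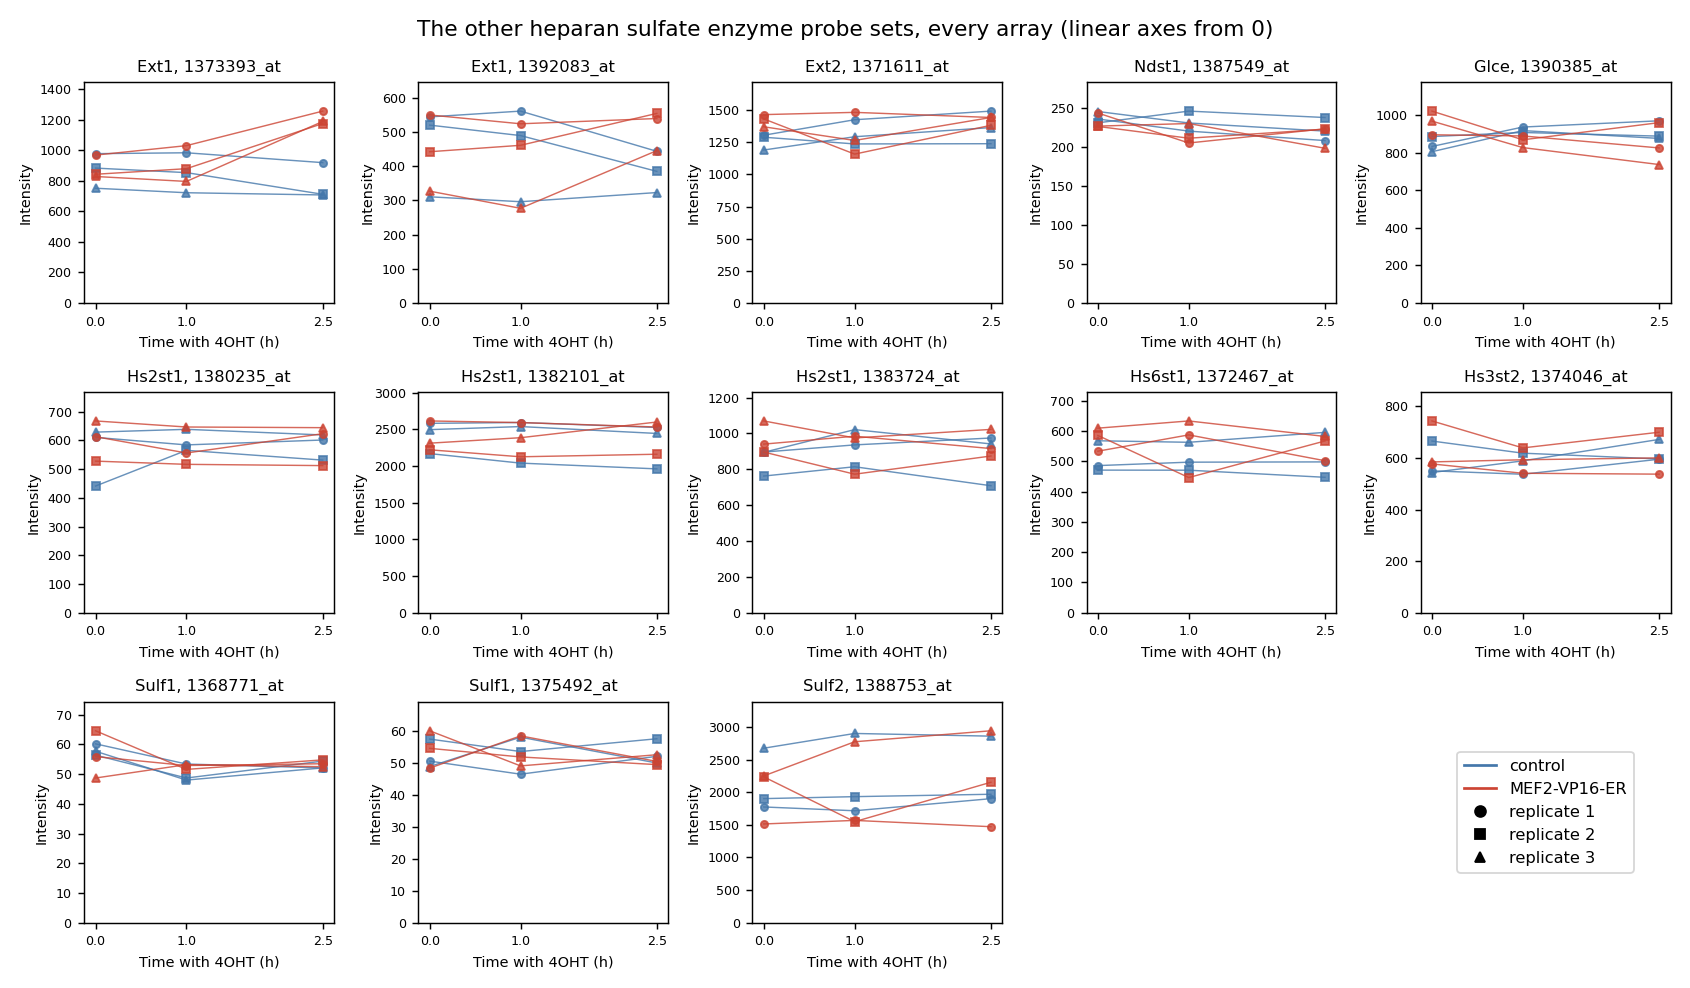
Deposited intensity (linear axes from 0, a scale of its own for each panel) against hours with 4OHT for the 13 other probe sets, 1 point per array, with lines joining arrays of the same replicate number and colours for the 2 constructs. On Ext1 1373393_at the MEF2-VP16-ER arrays at 2.5 h, 1176.5 to 1258, stand above all other arrays, while on Sulf2 the replicates stand apart at all times.

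Glce, the gene of the C5-epimerase, went the other way in size, without passing the test. In control neurons it read 834, 886.7 and 805.9 at 0 h, 937.3, 908.4 and 918.4 at 1 h, and 970.6, 888.9 and 876.7 at 2.5 h. With MEF2-VP16-ER it read 896.2, 1022.2 and 968.9 at 0 h, 889.9, 869.3 and 827.9 at 1 h, and 826, 960.8 and 737.5 at 2.5 h. Before 4OHT all MEF2-VP16-ER arrays were above the control arrays, at 1 h all were below, and at 2.5 h the groups overlapped. The share of all probe sets placed so at 1 h was not counted. The induction was -0.28 ± 0.11 at 1 h (limma adjusted p = 0.996) and -0.31 ± 0.11 at 2.5 h (limma adjusted p = 0.745, with the block 0.273), and it was negative in 3 of 3 replicates at both times. At 0 h the difference between constructs was 0.19 ± 0.08 (adjusted p = 0.532). At the same time point the difference at 2.5 h was -0.12 ± 0.08 (adjusted p = 0.773), so the larger induction includes a 0 h difference of the opposite sign.

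Ndst1, the N-deacetylase and N-sulfotransferase gene, had the narrowest spread between replicates on a log scale after the dim Sulf1 probe set. Its 18 arrays lay between 198 and 245.6. With MEF2-VP16-ER it read 243.2, 226 and 226.4 at 0 h and 223, 222.4 and 198 at 2.5 h, so all 3 later arrays were just below the earlier ones (-0.11 ± 0.06). Control neurons went from 235.5, 230.6 and 245.1 to 207.9, 237.4 and 220, which overlapped. The induction at 2.5 h was -0.02 ± 0.09, with a 95% interval of -0.209 to 0.179 (adjusted p = 1).

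Hs2st1, which adds 2-O-sulfates, was measured by 3 probe sets, and their inductions at 2.5 h were -0.09 ± 0.19, 0.10 ± 0.17 and -0.07 ± 0.18 (adjusted p = 1 for each). Their arrays ranged over 441.4 to 668 on 1380235_at, 1961.2 to 2614.3 on 1382101_at and 708.3 to 1069.4 on 1383724_at. Replicate 2 had the lowest mean on all 3 probe sets. On 1383724_at all MEF2-VP16-ER arrays at 0 h, 940.3, 896 and 1069.4, were above the control arrays at 895.9, 762.3 and 894.5, with the closest pair nearly equal. Hs6st1, which adds 6-O-sulfates, ranged from 446.2 to 632.9, with an induction of -0.07 ± 0.18 at 2.5 h (95% interval -0.455 to 0.306). None of these 4 probe sets had a group at 2.5 h that stood apart from the group of the other construct.

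The sulfatase genes differed in how well they could be measured. Sulf1 lay well below the array medians on both probe sets, between 46.5 and 64.6 over all 18 arrays, so a small change would hardly be seen there. On 1368771_at all control arrays at 1 h (53.4, 48.7 and 48) and at 2.5 h (52.1, 54.4 and 52.1) were below those at 0 h (60.2, 56.4 and 57.7). The change was -0.17 ± 0.06 at 1 h (limma adjusted p = 1), and the other Sulf1 probe set had overlapping groups. Its inductions at 2.5 h were 0.05 ± 0.09 and -0.09 ± 0.11.

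Sulf2 was bright but varied with the replicate number. It read 1775.1, 1903.2 and 2677 in control neurons at 0 h and 1902.5, 1970.1 and 2861.8 at 2.5 h. The MEF2-VP16-ER arrays read 1514.3, 2237.6 and 2251.7 at 0 h and 1472.3, 2154.5 and 2944.3 at 2.5 h. Replicate 3 was the highest in all 6 groups, with replicate means of 1658, 1958 and 2736 over 6 arrays each, a span of 0.717 log2 units. The summed intensity of 4 measured oligodendrocyte markers was also highest in replicate 3. It was 2066 to 2586 in replicate 1, 2135 to 2603 in replicate 2 and 2955 to 4364 in replicate 3, so replicates 1 and 2 overlapped. Most of the spread in this sum came from Cnp, which ran from 1307.9 to 3571.2 over all arrays. Mbp ran from 495.6 to 657.4, Mog from 61.3 to 93.1 and Mag from 97.8 to 120.1. The part of these markers in the Sulf2 levels was not tested. The induction of Sulf2 at 2.5 h was 0.02 ± 0.41, with a 95% interval of -0.866 to 0.896. In the blocked fit the SE was 0.166 and the interval -0.338 to 0.368, which does not hold the 0.61 of Ext1.

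**Figure D3:**
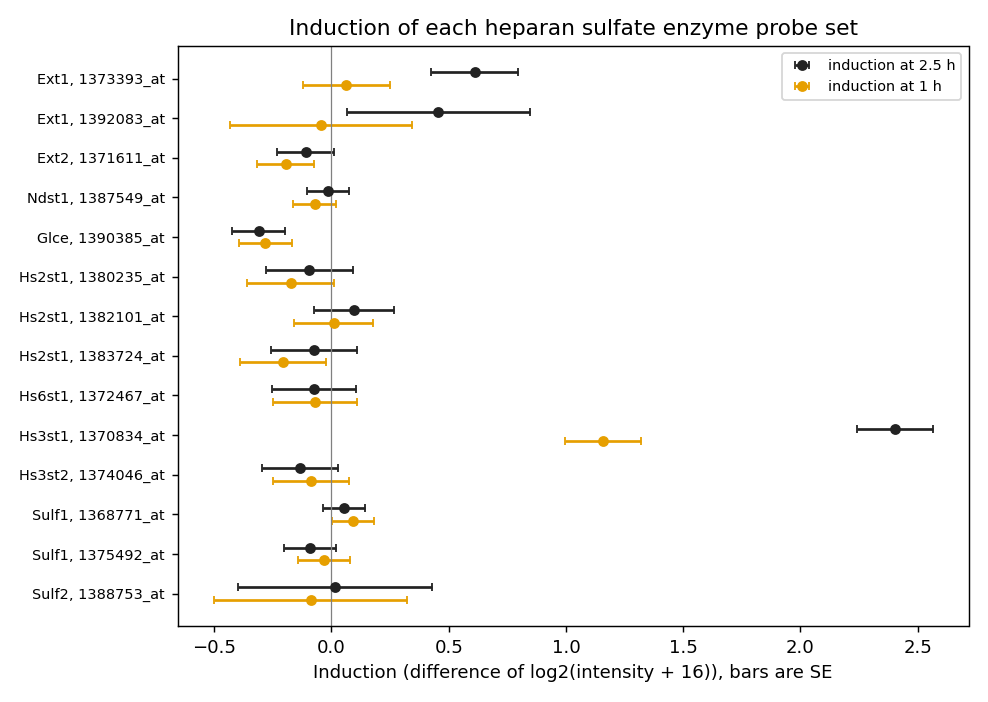
Induction of each of the 14 probe sets at 2.5 h and at 1 h, in log2 units, with bars of 1 SE from limma. Hs3st1 lies at 2.40 and 1.16, Ext1 1373393_at at 0.61 at 2.5 h only, Glce at -0.31 and -0.28, and the bars of Sulf2 are the widest.

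Counted together, 0 of the 13 probe sets other than Hs3st1 were called in the induction at 2.5 h by limma, where 0.177% of all 31042 probe sets were called. At unadjusted p under 0.05 there were 2 of 13, against 4.78% of all. With the replicate block 1 of 13 was called, Ext1, where 0.937% of all were called. Of the 13 inductions 5 were positive, with a median of -0.07, against a median of 0.00 and 51.5% positive over all probe sets. In the change of MEF2-VP16-ER neurons at 2.5 h, 0 of 13 were called by limma, against 0.789% of all, and 2 were at unadjusted p under 0.05, against 6.18%. With the block 1 of 13 was called, Ext1 again, against 2.33%. The groups did not overlap for Ext1, higher, where 5.76% of all probe sets were so, and for Ndst1, lower, where 5.53% were.

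At 1 h limma called 0 of 13 in the induction, against 0.00322% of all probe sets, and 1 was at unadjusted p under 0.05, against 4.7%. In MEF2-VP16-ER neurons alone limma called 0 of 13 at 1 h, against 0.0354% of all, and 0 were at unadjusted p under 0.05, against 4.17%. There 12 of the 13 changes were negative, within a range of -0.15 to 0.03, and several of the 13 belong to the same gene. Over all probe sets 43.2% of these changes were positive, with a median of -0.01. The groups did not overlap for Glce, lower, where 5.43% of all probe sets were so. In control neurons limma called 0 of 13 at both times, against 0% of all, and 0 with the block, against 0.00322% of all at 2.5 h and 0% at 1 h. At unadjusted p under 0.05 there were 0 of 13 at 2.5 h, against 2.15% of all, and 1 at 1 h, against 2.71%. Of the 13, Sulf1 1368771_at alone had control groups that did not overlap at 2.5 h, lower, where 4.04% of all probe sets were so. At 1 h it was again lower, where 4.45% of all were so, and Glce was higher, where 2.62% were so. Before 4OHT limma called 0 of 13 between the constructs, against 0% of all, and 0 with the block, against 0.00322%. At unadjusted p under 0.05 there was 1 of 13, against 8.81% of all. At that time 3 of 13 probe sets, of Ext2, Glce and Hs2st1, were higher in all MEF2-VP16-ER arrays, where 8.06% of all were so. Several of these comparisons share their 0 h arrays. Shares of all probe sets without overlap were not counted between the constructs at 1 h or 2.5 h.

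The wider heparan and chondroitin sulfate genes were looked at through 6 lists of 70 genes, of which 54 were measured and the other 16 were not analysed here. Limma called 0 of the 54 in the induction at 2.5 h, against 0.177% of all probe sets, and 3 were at unadjusted p under 0.05, against 4.78%. With the block 1 was called, Chsy1, against 0.937%. Of the 54 inductions 25 were positive, against 51.5% of all probe sets, with a median of -0.02 and a range of -0.46 to 0.53. By role, 0 of 10 genes of the linkage region and chain, 0 of 4 other heparan sulfate sulfotransferases, 0 of 9 genes of precursor supply, 0 of 7 of degradation, 0 of 13 core proteins and 0 of 11 chondroitin and dermatan sulfate enzymes were called by limma without the block.

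Chsy1, a chondroitin synthase gene, moved down with MEF2-VP16-ER. It read 1703, 2139.6 and 1995.1 at 0 h, 1516.9, 1650.3 and 1975.6 at 1 h, and 1202, 1518 and 1602.8 at 2.5 h with MEF2-VP16-ER. In control neurons it read 1764.3, 1939.6 and 1948.3 at 0 h and 1755.5, 1939.2 and 2049.7 at 2.5 h. All MEF2-VP16-ER arrays at 2.5 h were below all arrays of the other 3 of these groups at 0 h or 2.5 h, and the control groups overlapped. The change with MEF2-VP16-ER was -0.43 ± 0.13 (limma adjusted p = 0.213, with the block 0.000968), and the induction was -0.46 ± 0.18 (adjusted p = 0.855, with the block 0.0222). With the block and 1 array left out, the induction was called in 6 of 12 fits (adjusted p = 0.0230 to 0.0755). The neuron marker sum also went down over the MEF2-VP16-ER arrays, lying between 45593 and 50013 at 0 h and between 42914 and 44499 at 2.5 h. This sum is weighted to bright markers, whose single inductions are given above, and its part in the Chsy1 result was not tested. Chst12, a chondroitin 4-O-sulfotransferase gene, had inductions of -0.32 ± 0.14 and -0.27 ± 0.10 on its 2 probe sets, neither of them called (limma adjusted p = 0.969 and 0.744, with the block 0.244 and 0.330).

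Among the other sulfotransferases, Hs3st5, a further 3-O-sulfotransferase gene, read 158.1, 169.9 and 133.6 with MEF2-VP16-ER at 0 h and 177.6, 227 and 206 at 2.5 h on the brighter of its 2 probe sets. In control neurons it read 143.2, 155.5 and 138.9 at 0 h and 141.8, 118 and 136.6 at 2.5 h. The MEF2-VP16-ER arrays at 2.5 h were above all others named here, and these intensities were below the array medians in all but 2 arrays. The induction was 0.50 ± 0.14 (adjusted p = 0.400, with the block 0.157), against 0.13 ± 0.12 on its other probe set. Without taking off the 0 h difference, limma called Hs3st5 (0.56 ± 0.10, adjusted p = 0.00929) and the chondroitin synthase gene Chsy3 (0.90 ± 0.19, adjusted p = 0.0246) at 2.5 h, where 1.28% of all probe sets were called. With the block both were called again (adjusted p = 0.00308 and 0.000373), and so were Chsy1 (-0.41 ± 0.13, adjusted p = 0.191 without the block and 0.00108 with it) and the dermatan sulfate epimerase-like gene Dsel (0.54 ± 0.17, adjusted p = 0.217 without and 0.00294 with it), where 3.49% of all probe sets were called. Chsy3 and Dsel were named after their values were seen, and their differences at 0 h were 0.37 and 0.21.

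The other genes that the rule named had inductions between -0.27 and 0.25 at 2.5 h, none of them called. Among genes of the linkage region and chain, the values were -0.18 ± 0.16 for the xylosyltransferase gene Xylt2, 0.08 ± 0.11 for the glucuronyltransferase gene B3gat3 and 0.17 ± 0.10 for Extl1. Among degradation genes, heparanase (Hpse) stood at 0.25 ± 0.14 and the sulfatase gene Arsg at 0.07 ± 0.12. Among core proteins, the values were 0.12 ± 0.15 for syndecan 2 (Sdc2), -0.27 ± 0.17 for glypican 2 (Gpc2) and 0.20 ± 0.11 for perlecan (Hspg2). The rule names genes by p and not by size, and the 13 measured core proteins spanned -0.39 to 0.20. For precursor supply, the sulfate donor transporter gene Slc35b3 stood at -0.18 ± 0.14 and the phosphatase gene Bpnt2 at 0.09 ± 0.08. Hs3st6 (0.07 ± 0.11) and the dermatan 4-O-sulfotransferase gene Chst14 (0.17 ± 0.08) completed those named by the rule.

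**Figure D4:**
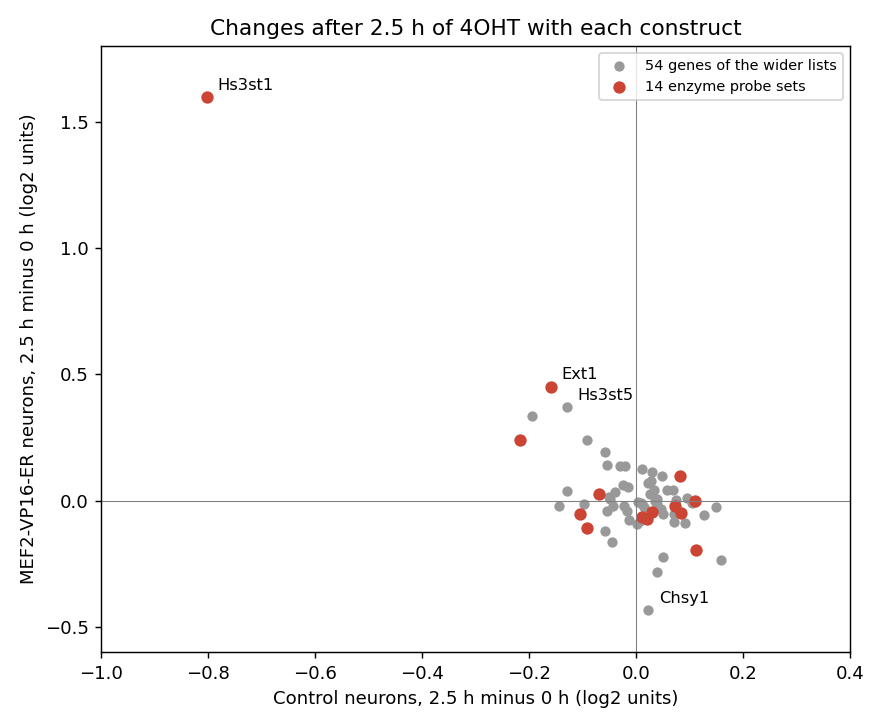
Change from 0 h to 2.5 h in MEF2-VP16-ER neurons against that in control neurons, both in log2 units, for the 14 enzyme probe sets (red) and 54 genes of the wider lists (grey). Hs3st1 stands alone at -0.80 and 1.60, Ext1 at -0.16 and 0.45 and Chsy1 at 0.02 and -0.43, and all other points lie closer to the origin.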

How the data were processed

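The 18 Affymetrix arrays were deposited as 1 value per probe set and array, an intensity on a linear scale between 19 and 29640.4, and how the authors summarised and normalized these intensities is, in the sources used here, not given. Per the labels' protocols, RNA was extracted with a column kit and hybridised as biotin-labelled cRNA. Detection calls were not used. Values were taken as deposited, as log2(intensity + 16), with 57 control probe sets left out and no filter on dim ones. Of the 31042 probe sets tested, 20826 carried 1 gene symbol, 436 several and 9780 none.

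The 18 arrays were fitted jointly by limma as 6 group means, with 12 residual degrees of freedom and a prior of 2.89. Contrasts were tested two-sided with eBayes and Benjamini-Hochberg adjustment over all 31042 probe sets, in 7 comparisons. The steps were tested on simulated data. Alternatives were pseudocounts of 1 and 64, median centring, quantile normalization, probe sets above the median level alone, any probe set of a gene, only the groups of a contrast, the replicate block, single arrays left out, and constructs compared within a time. The block with single arrays left out was added after the values were seen.

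Residuals of arrays with the same replicate number, which the labels give, correlated above 0.1 in 44 of 45 pairs (0.068 to 0.791), and 18 of 18 arrays correlated best with one of their own number. The lowest value joined replicate 2 of the MEF2-VP16-ER groups at 0 h and 1 h. Comparisons that hold both groups were not treated as paired, and their counts with the block are given only as an alternative setting. For the others the block is given beside a result where it changes a call. SEs and intervals come from the fit without the block unless stated, so they ignore the shared replicate number. Nothing says whether a number marks a shared culture day, and p-values measure the spread between these samples.

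The members, the gene lists, the marker lists and the tests were chosen with earlier results of these data known. All 10 enzymes are named with every probe set. Of the wider lists, each represented by its brightest probe set per gene, the text names genes called in any of the 7 comparisons, with or without the block, and, in each list, the 2 with the smallest p in the induction at 2.5 h and the 1 with the smallest p in control neurons at 2.5 h, 15 genes in all. The 5 genes most like Hs3st1 and the 3 least like it are also named. Promoters are the 250 bases before the annotated start in a RefSeq table of GRCr8. The analysis used limma 3.58.1 in R 4.3.3, and pandas 2.3.3 and matplotlib 3.10.9 in Python 3.11.15.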

Additional observations from a re-analysis of the deposited data

Results flagged for a closer look

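The change from 0 h was flagged for 3 of the enzymes, by a test with the replicate block for Ext1 and by direction alone for Hs3st1 and Glce. How many of all probe sets would be flagged by direction alone was not counted, so such a flag is a description only. Flags at 1 h and 2.5 h share their 0 h arrays. For Ext1 on 1373393_at the difference at 2.5 h, 0.611 log2 units, passed limma's test with the replicate block (adjusted p = 0.00315) and not without it (adjusted p = 0.479). For Hs3st1 every replicate moved up with MEF2-VP16-ER and down with the control construct, by a difference of 2.401 at 2.5 h and 1.16 at 1 h. That difference was not tested, since Hs3st1 was chosen for it. For Glce every replicate moved down with MEF2-VP16-ER and up with the control construct, by a difference of -0.3092 at 2.5 h and -0.2826 at 1 h, and in limma neither passed the threshold after adjustment (0.745 and 0.996). In replicate 2 the control change of Glce at 2.5 h was 0.0035, so its sign there rests on a very small difference. The constructs already differed in Glce by 0.19 at 0 h. At 2.5 h itself they differed by -0.12 (limma adjusted p = 0.773).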

How the results depend on the processing

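With the replicate block the number of probe sets called was 291 for the induction at 2.5 h (55 without), 9 for that at 1 h (1), 724 for the change of MEF2-VP16-ER neurons at 2.5 h (245), 58 for that at 1 h (11), and 1 for control neurons at 2.5 h and for the constructs at 0 h (0 each). For both the induction and the MEF2-VP16-ER change at 2.5 h, the block called 1 of the 13 enzyme probe sets tested and 1 wider gene, where none was called without it. The block changed no other call of an enzyme or wider gene in the 7 comparisons. With only the groups of a comparison in the model the counts were 32, 0, 75 and 4 in the same order for the inductions at 2.5 h and 1 h and the MEF2-VP16-ER changes at 2.5 h and 1 h. At the same time, without the 0 h difference, they were 397 at 2.5 h, with 1 enzyme probe set (Ext1) and 2 wider genes, and 19 at 1 h. The induction at 1 h gave 3 with quantile normalization and 2 with median centring or with only probe sets above the median level. The induction of Hs3st1 at 2.5 h was 2.22 with a pseudocount of 64 and 2.26 to 2.52 with single arrays left out. No direction of a called result was reversed.

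Leaving out single arrays gave 30 to 64 called probe sets for the induction at 2.5 h, with 31 without control 0 h replicate 1, 33 without control 0 h replicate 2, 36 without control 2.5 h replicate 2, and 32 or 30 when replicate 2 or 3 of MEF2-VP16-ER 0 h was missing. The range was 0 to 2 for the induction at 1 h and 134 to 225 for MEF2-VP16-ER neurons at 2.5 h (136 without 0 h replicate 2, 134 without 0 h replicate 3 and 151 without 2.5 h replicate 3). It was 7 to 15 for MEF2-VP16-ER neurons at 1 h (7 without 0 h replicate 3), 0 to 1 in control neurons at 2.5 h (1 without 2.5 h replicate 1), and 0 in control neurons at 1 h and between constructs at 0 h. These fits use fewer samples and no replicate block, and 0 of the 13 enzyme probe sets tested and 0 wider genes were called in them. Fits with the block and 1 array left out are given above for Ext1 and Chsy1. Without the 0 h difference, inductions at 2.5 h became 0.06 for Ext2, -0.12 for Glce, 0.11 for Hs2st1 on 1383724_at and 0.10 for Hs6st1, which were not called. Sulf1 on 1368771_at had a 2.5 h induction of 0.13 without MEF2-VP16-ER 0 h replicate 2 and -0.02 without replicate 3 of that group, at intensities far below the array medians. Causes of these shifts were not tested beyond what the settings themselves change.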
